A study of Mus musculus with 32 samples.

Results

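The levels of 10 genes of polyamine metabolism were described across laser-captured regions of mouse *tibialis anterior* muscle. The genes were chosen by name, after earlier results of these data were known, and all 10 of the 10 were found among the 24952 genes measured. They were *Odc1*, *Azin1*, *Oaz1*, *Oaz2*, *Amd1*, *Srm*, *Sms*, *Sat1*, *Smox* and *Paox*. *Smox* was singled out because its level fell from 10 to 30 months in extra-synaptic regions, so that comparison, and every comparison of *Smox* that takes in xNMJ libraries, is given as a description without a test. All 10 were among the 13990 genes that reached a level of 1 CPM (counts scaled by library size) in 8 or more libraries.

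The samples were neuromuscular junction regions (NMJ), found with fluorescent α-bungarotoxin, which binds acetylcholine receptors, and extra-synaptic regions (xNMJ) of the same muscle type. They came from wild-type male C57BL/6JRj mice of 10 months (10m) or 30 months (30m) that were housed 1 to a cage on the AIN93M diet, which the older mice had received for longer. There were 8 libraries for either region at either age (4 groups), and each library pooled many captured regions. The labels do not say which libraries came from the same mouse, so the p-values measure the spread between these libraries. Total counts ran from 4026648 to 10258988 in 10m xNMJ, from 7080227 to 16516788 in 10m NMJ, from 4424672 to 13182475 in 30m xNMJ and from 6703228 to 16422527 in 30m NMJ.

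Polyamines are small, positively charged molecules (putrescine, spermidine and spermine) that bind nucleic acids, support translation and growth, and block some ion channels from inside the cell. Ornithine decarboxylase (ODC) makes putrescine from ornithine, and S-adenosylmethionine decarboxylase supplies the group that spermidine synthase and spermine synthase add to build the longer polyamines. Breakdown runs through an acetyltransferase and oxidases that turn spermine and spermidine back into shorter forms. Antizymes bind ODC and send it for degradation, and antizyme inhibitors release it, so the pathway is set in large part after transcription.

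Junction markers followed the labels of the regions, with 1 library apart. The summed level of 7 junction genes (*Chrne*, *Chrna1*, *Chrnd*, *Musk*, *Ache*, *Colq* and *Etv5*), of which *Chrna1* was the most abundant, had a median of 1582 CPM in NMJ against 34.6 CPM in xNMJ at 10 months, and of 1537 against 36.5 CPM at 30 months. In 30m xNMJ replicate 5 this sum was 422.4 CPM, while the next library of its group held 49.3 CPM, and on the first principal component of log2 CPM it lay at 21.66 while every other xNMJ library lay at -38.5 or below. Some values are also given without this library.

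Markers of several other cell types were also higher in NMJ. The 3 Schwann cell markers (*S100b*, *Sox10* and *Mbp*) and the 4 mast cell markers were called higher in NMJ at both ages. All of these but *Mbp* had means under 1 CPM in both xNMJ groups. They could pass the filter on low counts through NMJ libraries alone, which favours a call in that direction. Of the fibroblast markers 4 of 5, and of the macrophage markers 3 of 5, were called higher at 10 months. At 30 months 3 of the 5 fibroblast markers and 2 of the 5 macrophage markers were. Of the macrophage markers, only *C1qb* was called at both ages. The limit of the filter also holds for *Cd68* and *C1qa*, called at 10 months with xNMJ means of 0.56 and 0.48 CPM. It holds as well for *Adgre1*, called at 30 months with no count in any 30m xNMJ library. The summed Schwann cell level had a median of 122.1 CPM in NMJ against 2.74 CPM in xNMJ at 10 months, and of 76.3 against 1.92 CPM at 30 months, with *Mbp* the most abundant gene of the 3. The summed mast cell level had a median of 29.3 CPM in 10m NMJ and of 0 CPM in 10m xNMJ (42.3 and 0 CPM at 30 months), with *Cma1* the most abundant and *Cpa3* without a count in any xNMJ library. The fibroblast sum, led by *Dcn*, was 1176 against 164.2 CPM at 10 months and 985.8 against 156.3 CPM at 30 months. The macrophage sum, led by *C1qb*, was 64.5 against 12.9 CPM and 60.5 against 10.8 CPM. Of the 4 muscle stem cell markers, 1 of the 3 tested was called higher at each age. Their sum was 62.8 against 15 CPM at 10 months and was mostly *Sdc4*, the gene called, with means of 58.13 against 10.97 CPM. At 10 months *Pax7* was not called (log2 fold change 0.47, edgeR adjusted p = 0.85), with no count in 3 of 8 xNMJ libraries and 1 NMJ library. There *Vcam1* (log2 fold change -0.51, not called) and *Myf5* (0.1469 against 1.114 CPM, not tested) went the other way. The muscle fibre sum, led by *Acta1*, was lower in NMJ, at 62150 against 89460 CPM at 10 months and 57820 against 89060 CPM at 30 months, and 3 and 4 of its 8 genes were called lower. Of the 5 endothelial markers, led by *Egfl7*, 2 were called lower in NMJ at 30 months and none at 10 months, and no red blood cell marker was called at either age. In such bulk regions, more cells of a type and more RNA per cell cannot be told apart, and the part of these cells in the differences between regions below was not tested.

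Promoter sequence is shown here for the members with the largest difference between regions and for *Smox*, since synaptic genes of muscle fibres are known for the N-box, the motif CCGGAA bound by GABP. RefSeq windows (GRCm38.p6) of 250 bases before to 50 bases after a start were at hand for 8 of the 10 members. Each line gives the longest stretch before the start that overlaps no annotated exon, 5′ to 3′ on the gene's strand, and capitals mark N-box matches on either strand.
*Sat1*, chrX:155216450-155216699, minus strand: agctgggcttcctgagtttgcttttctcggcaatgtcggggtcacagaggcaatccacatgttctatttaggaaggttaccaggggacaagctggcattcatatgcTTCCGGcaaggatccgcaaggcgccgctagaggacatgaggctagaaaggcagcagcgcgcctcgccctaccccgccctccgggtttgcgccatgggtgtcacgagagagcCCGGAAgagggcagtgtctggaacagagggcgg
*Odc1*, chr12:17544623-17544793, plus strand: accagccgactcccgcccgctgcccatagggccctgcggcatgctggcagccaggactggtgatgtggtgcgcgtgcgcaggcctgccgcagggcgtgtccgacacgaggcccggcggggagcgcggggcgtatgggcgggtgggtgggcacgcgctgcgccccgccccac
*Smox*, chr2:131491654-131491763, plus strand: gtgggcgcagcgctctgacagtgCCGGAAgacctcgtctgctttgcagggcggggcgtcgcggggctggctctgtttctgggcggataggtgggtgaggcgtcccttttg

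*Sat1* held 2 matches, 144 and 33 bases before its start, and *Smox* held 1, 185 bases before the RefSeq start of its window. GENCODE begins *Smox* earlier, at chr2:131491496. The printed *Smox* stretch therefore lies inside the gene as GENCODE annotates it, outside annotated exons, and is upstream of the RefSeq start only. The match of *Odc1* lay at base 10 after its start and is not among the bases printed, while *Sms* had 1 in each of its windows. Over the whole windows, 4 of the 8 members had an N-box (*Smox*, *Sat1*, *Odc1* and *Sms*), in 5 of the 10 windows that the 8 members have, as did 14.9% of all 32851 windows of the same length. A member with 2 windows (*Sms* and *Paox*) had more chances of a match than a single window, here and in the counts of members that follow. In all, 10 motifs were searched on both strands, and the N-box was singled out after the matches were seen. CANNTG was in 7 of the 8 members and 72.3% of all windows, and GGGCGG was in 7 members (8 of their 10 windows) and 35.7% of windows. The shares over all windows were not matched to the members for base composition, so an excess of a motif was not tested. CACGTG was in 1 member (7.15% of windows), TATAAA in 1 (13.6%), CCAAT in 2 (37.4%) and CGTCA in 3 (20.8%). No member held CAGCTG (16.3% of windows), TGACTCA (5.2%) or TGACGTCA (1.79%). CANNTG includes CACGTG and CAGCTG, and CGTCA is part of TGACGTCA. A match describes the letters only and is not evidence of binding.

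The 10 genes differed widely in level. Levels between genes are compared in TPM, the abundance of transcripts scaled by their length and by the library. In 10m xNMJ, *Amd1* and *Oaz1* were the most abundant, at 415 ± 100 and 338 ± 84.4 TPM (mean ± SD, n = 8), and *Paox* (2.29 ± 1.76 TPM) and *Oaz2* (3.02 ± 5.62 TPM) the least. Ranked by mean, *Smox* (66.0 ± 27.3), *Sms* (33.9 ± 10.7), *Odc1* (29.8 ± 17.2), *Sat1* (22.8 ± 17.2), *Srm* (8.75 ± 9.33) and *Azin1* (6.06 ± 4.43) lay between them, and among *Sms*, *Odc1* and *Sat1* the means differed by less than the larger SD of each pair. In 10m NMJ the order was *Oaz1* (440 ± 59.3), *Amd1* (314 ± 131), *Odc1* (212 ± 64.9) and *Sat1* (198 ± 62.1), with *Smox* (82.1 ± 41.9) next. *Amd1* made up 44.9% ± 5.82 of the summed TPM of the 10 genes at 10 months in xNMJ, against 23.0% ± 7.35 in NMJ. The share of *Odc1* was 3.06% ± 1.19 in 10m xNMJ and 15.7% ± 3.75 in 10m NMJ, and that of *Sat1* was 2.41% ± 1.83 and 15.4% ± 6.58. In 30m NMJ *Oaz1* had the largest share (35.7% ± 4.36), and *Odc1* (20.1% ± 3.44) stood above *Amd1* (16.2% ± 4.77), by less than their summed SDs. The plot of these shares shows the 4 groups side by side.

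**Figure D1:**
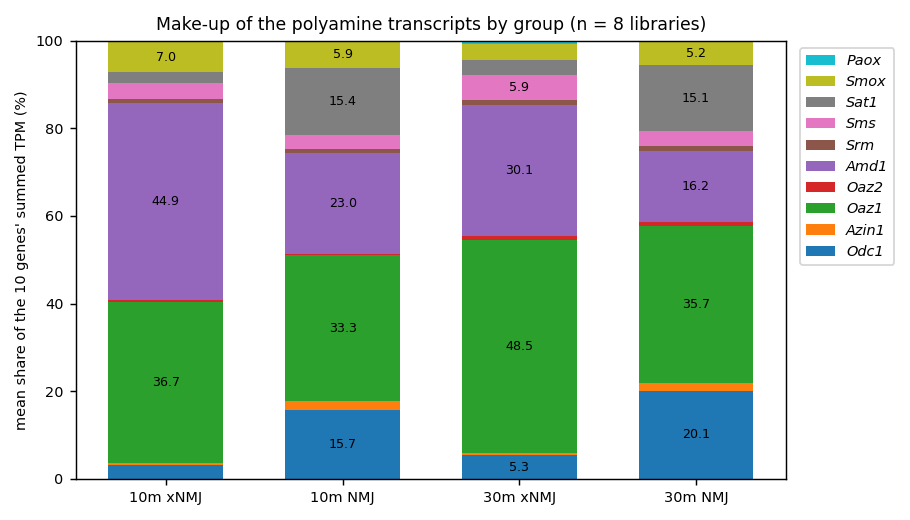
Stacked bars give each gene's mean share (%) of the summed TPM of the 10 polyamine genes in each group of 8 libraries, with shares above 4.5% printed. *Amd1* and *Oaz1* fill most of both xNMJ bars, while *Odc1* and *Sat1* each take 15.1% to 20.1% of the NMJ bars.

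The first comparison asked which members differed between the synapse and the rest of the muscle. Of the 9 members other than *Smox*, 3 were higher in NMJ at 10 months (*Sat1*, *Odc1* and *Azin1*) and 1 was lower (*Amd1*). Over all genes tested, edgeR's quasi-likelihood test with Benjamini-Hochberg adjustment called 909 of 13990 higher (6.5%) and 706 lower (5.05%). At 30 months, 3 of the 9 were higher (again *Sat1*, *Odc1* and *Azin1*) and none was called lower, against 700 (5%) and 595 (4.25%) of all genes. Without 30m xNMJ replicate 5, these same 3 were called, *Odc1* at a log2 fold change of 2.20 and *Azin1* at 1.85. The median log2 fold change of the 9 was 0.04 at 10 months and 0.57 at 30 months, beside 0.00 and -0.01 over all genes tested. The median of 0.57 was the value of *Oaz2* (SE 1.03), which ran from 0.10 to 1.30 on leaving out 1 library. At 30 months 7 of all 10 genes lay above 0, while *Amd1* (-0.61), *Sms* (-0.52) and *Paox* (-0.69) lay below. A shift of the 9 as a set was not tested. The plot of fitted differences shows all 10 genes in 4 comparisons.

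**Figure D2:**
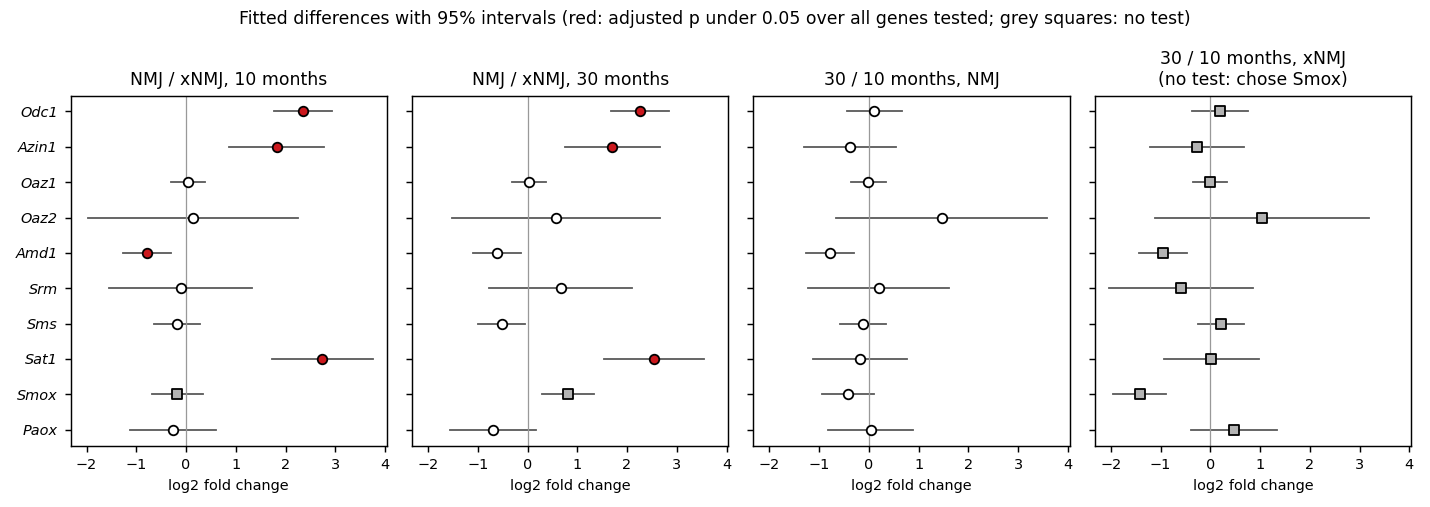
Points give fitted log2 fold changes and lines their 95% intervals for the 10 genes in 4 comparisons, with filled points for an adjusted p under 0.05 over all genes tested. *Odc1*, *Azin1* and *Sat1* are filled in both comparisons of regions, and no point is filled for age in NMJ. Grey squares have no test, namely *Smox* between regions and all genes for age in xNMJ.

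*Odc1* (chr12:17544794-17551505 on GRCm38) encodes ornithine decarboxylase, the enzyme that commits ornithine to polyamines. Its level in 10m xNMJ libraries ran from 19.3 CPM over a median of 49.8 to 112 CPM, and in 10m NMJ libraries from 149 over 277 to 402 CPM. At 30 months it ran from 40.9 over 43.3 to 129 CPM in xNMJ and from 214 over 301 to 329 CPM in NMJ. At both ages, every NMJ library lay above every xNMJ library. The log2 fold change was 2.35 at 10 months (SE 0.29, edgeR adjusted p = 3.9e-07) and 2.26 at 30 months (SE 0.28, edgeR adjusted p = 1.2e-06), which is 5.09-fold and 4.80-fold. The difference between the ages in this region effect was -0.09 on the log2 scale (95% interval -0.87 to 0.70, edgeR adjusted p = 0.9999).

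*Azin1* (chr15:38487427-38519266) encodes antizyme inhibitor 1, which binds antizymes and so spares ODC. It ran from 5.20 over 24.4 to 44.9 CPM in 10m xNMJ and from 52.8 over 66.0 to 121 CPM in 10m NMJ, without overlap. At 30 months it ran from 0.53 over 17.6 to 36.6 CPM in xNMJ and from 32.8 over 66.3 to 79.1 CPM in NMJ, where 6 of 8 NMJ libraries lay above all xNMJ libraries. The log2 fold change was 1.82 at 10 months (SE 0.47, edgeR adjusted p = 0.0080) and 1.71 at 30 months (SE 0.47, edgeR adjusted p = 0.015).

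The antizymes themselves did not pass the test. *Oaz1*, the main antizyme, had similar counts in all 4 groups, at 301 ± 68.7 CPM in xNMJ against 310 ± 40.5 CPM in NMJ at 10 months, and 300 ± 76.0 against 307 ± 86.7 CPM at 30 months (mean ± SD over the libraries of a group). Its log2 fold change between regions was 0.04 at 10 months (95% interval -0.30 to 0.39) and 0.03 at 30 months (95% interval -0.31 to 0.38). On the TPM scale *Oaz1* was called higher in NMJ at both ages, where the median gene was higher too (values with the scalings below). *Oaz2*, a second antizyme, varied widely between libraries, from no count to 13.4 CPM in 10m xNMJ and from 0.50 to 22.7 CPM in 30m NMJ. In 10m xNMJ, 6 of the 8 libraries had 3 counts or fewer and 3 of those had none, where a count of 0 allowed up to 0.55 to 0.93 CPM for counting error alone. Its intervals between regions spanned -1.98 to 2.26 on the log2 scale at 10 months and -1.53 to 2.67 at 30 months, so a difference of several fold in either direction was not detectable between these libraries.

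Of the genes that build the longer polyamines, *Amd1* (chr10:40287458-40302186) encodes S-adenosylmethionine decarboxylase. It ran from 570 over 829 to 1335 CPM in 10m xNMJ and from 304 over 539 to 946 CPM in 10m NMJ, where 5 of 8 NMJ libraries lay below all xNMJ libraries. At 30 months it ran from 202 over 430 to 747 CPM in xNMJ and from 228 over 282 to 462 CPM in NMJ, and the groups overlapped. The log2 fold change was -0.79 at 10 months (SE 0.24, edgeR adjusted p = 0.024) and -0.61 at 30 months (SE 0.24, edgeR adjusted p = 0.11). The call at 10 months was lost on leaving out 10m xNMJ replicate 7 (adjusted p = 0.060) or 10m NMJ replicate 4 (0.057), 6 (0.056) or 7 (0.057), and without 30m xNMJ replicate 7 the value at 30 months passed (-0.73, adjusted p = 0.038). The 10-month call was also lost without the filter on low counts (adjusted p = 0.061), with insert size as a covariate (0.0505) and on TPM. *Amd1* is also uncertain because 89.6% of the 31-base words in its transcripts occur in *Amd2*, a near copy that was not analysed here, and the counting divided a read over the transcripts it matched.

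*Srm*, the spermidine synthase gene, was low in all groups, its lowest mean being that of 30m xNMJ (6.56 ± 5.88 CPM) and its highest that of 30m NMJ (10.3 ± 8.91 CPM), and 1 library of each xNMJ group had no count. Its log2 fold change between regions was -0.11 at 10 months (95% interval -1.54 to 1.32) and 0.67 at 30 months (95% interval -0.77 to 2.11). *Sms*, the spermine synthase gene, had 116 ± 37.8 CPM in xNMJ against 102 ± 28.2 CPM in NMJ at 10 months, and 134 ± 53.0 against 93.3 ± 18.4 CPM at 30 months. Its log2 fold change was -0.19 at 10 months and -0.52 at 30 months (SE 0.23 for both, edgeR adjusted p = 0.69 and 0.18).

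*Sat1* (chrX:155213132-155216449) encodes spermidine/spermine acetyltransferase, the step that marks polyamines for oxidation or export. It had the largest log2 fold change between regions of the 10 genes at both ages. Its level ran from 2.84 over 21.5 to 49.0 CPM in 10m xNMJ and from 85.5 over 132 to 258 CPM in 10m NMJ, without overlap. At 30 months it ran from 6.17 over 11.8 to 73.8 CPM in xNMJ and from 52.6 over 97.0 to 290 CPM in NMJ. The highest xNMJ value was that of replicate 5, the library that stood apart, and the next was 28.6 CPM, below every NMJ library. The log2 fold change was 2.74 at 10 months (SE 0.50, edgeR adjusted p = 2.0e-04) and 2.54 at 30 months (SE 0.49, edgeR adjusted p = 6.5e-04), which is 6.66-fold and 5.81-fold. Without 30m xNMJ replicate 5 the value at 30 months was 3.18 (edgeR adjusted p = 1.5e-05).

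*Paox* encodes the oxidase that acts on acetylated polyamines. Its lowest group mean was 7.13 ± 2.54 CPM (10m NMJ) and its highest 11.8 ± 9.16 CPM (30m xNMJ). Its log2 fold change between regions was -0.26 at 10 months (95% interval -1.12 to 0.61) and -0.69 at 30 months (95% interval -1.55 to 0.18). Of its 31-base words, 3.84% occur in transcripts of other genes.

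*Smox* (chr2:131491496-131525922) encodes spermine oxidase, which turns spermine straight into spermidine and releases hydrogen peroxide. The xNMJ libraries entered the choice of this gene, so its values between regions are a description, without a test. It ran from 61.6 over 79.6 to 149 CPM in 10m xNMJ and from 39.9 over 77.0 to 152 CPM in 10m NMJ, where the groups overlapped (log2 fold change -0.18, SE 0.25). At 30 months it ran from 23.0 over 33.8 to 51.2 CPM in xNMJ and from 37.4 over 67.3 to 89.0 CPM in NMJ, where 6 of 8 NMJ libraries lay above all xNMJ libraries. The log2 fold change there was 0.82 (SE 0.26), and 0.87 without 30m xNMJ replicate 5. On the TPM scales, where the median gene was higher too, *Smox* had 1.39 and 1.43 at 30 months, and its value at 10 months turned to 0.25.

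**Figure D3:**
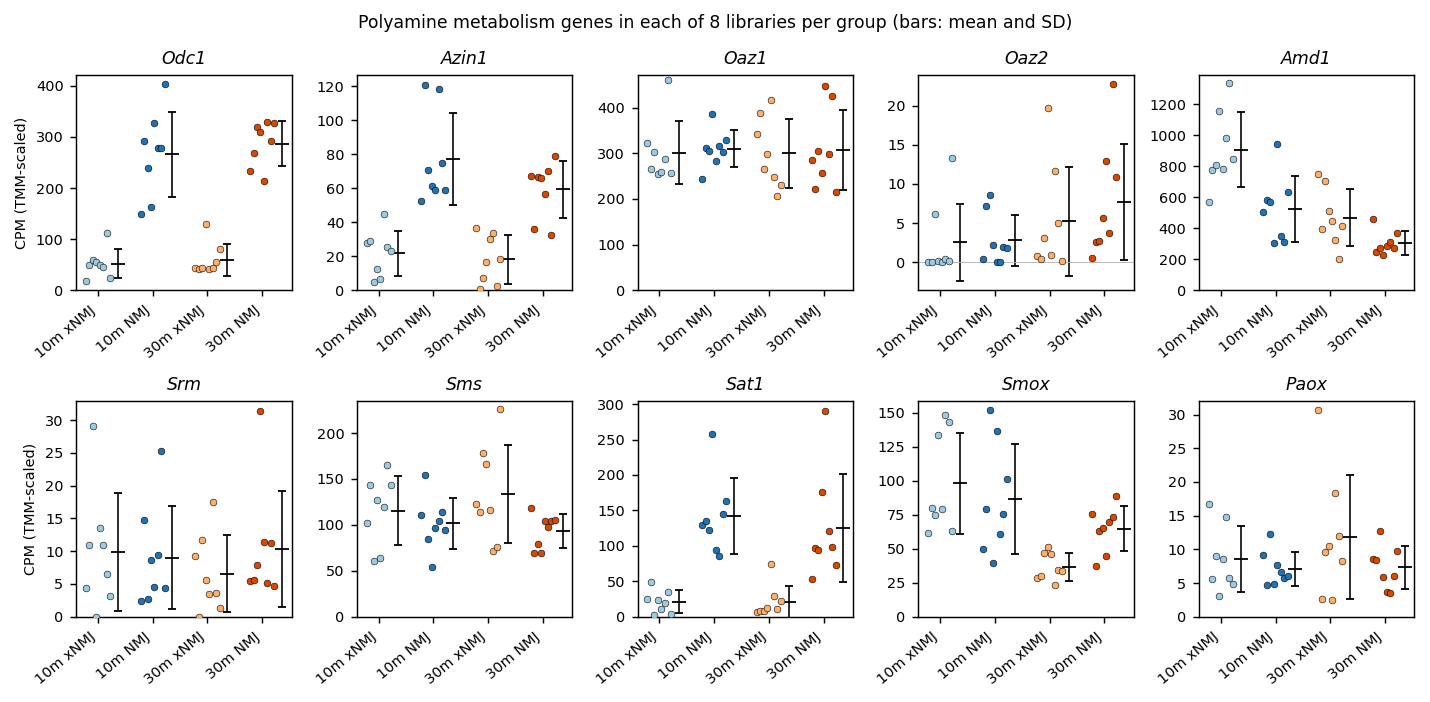
Each point is 1 library's level in CPM (scaled by TMM, the trimmed mean of M-values), with the mean and SD of the 8 libraries of each group beside it, in a panel per gene with its own axis. *Odc1* separates NMJ from xNMJ at both ages, *Oaz1* has group means between 299.8 and 309.6 CPM, and all 30m xNMJ points of *Smox* lie below all its 10m xNMJ points.

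The sign of the smaller differences depended on the scaling, which moved the median of all genes as well. With TMM, the median log2 fold change of all genes was 0.00 at 10 months and -0.01 at 30 months, and 56.3% and 54.1% of the called genes were higher in NMJ. On log2(TPM + 1) with limma, the median gene moved to 0.37 and 0.49, and 91.9% and 98.3% of the called genes were higher. *Oaz1* then had 0.41 (limma adjusted p = 0.034) and 0.49 (limma adjusted p = 0.0098), but relative to the median gene it stood at 0.04 and -0.00. *Amd1* had -0.48 at 10 months (limma adjusted p = 0.16) and 0.03 at 30 months, or -0.85 and -0.47 relative to the median. *Odc1*, *Sat1* and *Azin1* were called higher at both ages under both scalings and under the other alternatives tried, and relative to the median gene they stood at 2.54, 3.09 and 1.79 at 10 months on this TPM scale. The plot of region differences under 3 scalings shows these shifts.

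**Figure D4:**
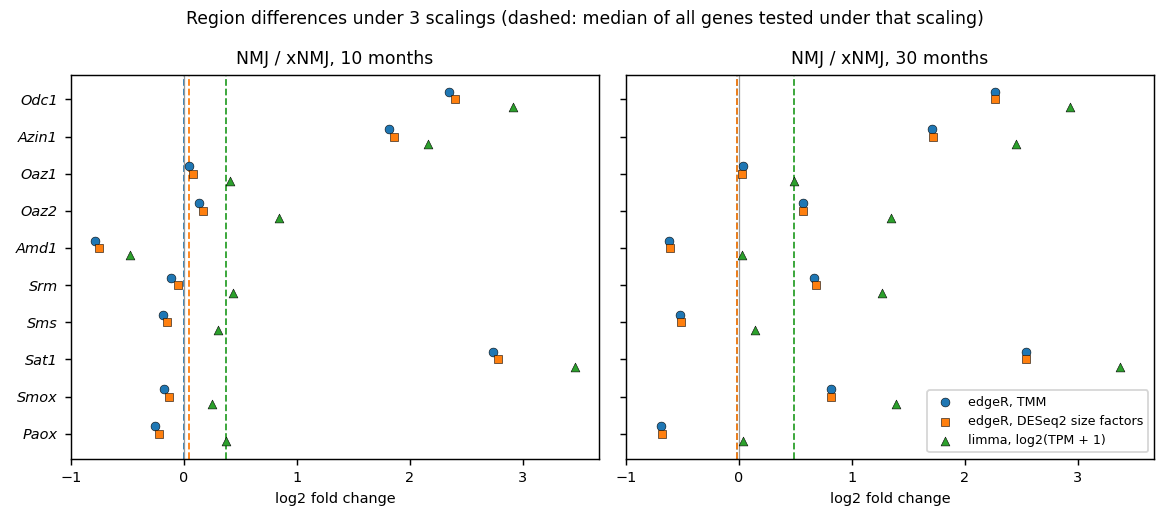
Points give the log2 fold change between NMJ and xNMJ of the 10 genes under 3 scalings, and dashed lines the median of all genes tested under each. Under log2(TPM + 1) the points move right with the median line, to 0.37 at 10 months and 0.49 at 30 months, while *Sat1*, *Odc1* and *Azin1* stay far to its right.

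The second comparison asked what differed with age within a region. Within NMJ, none of the 10 genes passed the test, as was the case for all genes (0 of 13990, 0%, by edgeR, with 372 genes at an unadjusted p under 0.05, and 1 gene by DESeq2). The member furthest from 0 in units of its standard error was *Amd1*, with a log2 fold change of -0.78 (SE 0.24, edgeR adjusted p = 0.9998). Every 30m NMJ library lay below the 10m NMJ median of *Amd1*. *Smox* had -0.42 in NMJ (95% interval -0.94 to 0.09, edgeR adjusted p = 0.9998). *Odc1* and *Sat1* had 0.11 (95% interval -0.44 to 0.66) and -0.18 (95% interval -1.12 to 0.76). *Oaz1* had -0.01 (95% interval -0.36 to 0.33), the narrowest interval of the 10.

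Within xNMJ, where the rule chose *Smox*, the members are given without a test. Of all 13990 genes, edgeR called 6 (0.0429%), DESeq2 called 84, and edgeR on only the compared groups called 0. The summed level of the 4 red blood cell markers, led by *Hba-a2*, had a median of 1726 CPM at 10 months and 3894 CPM at 30 months in these libraries, with 30m xNMJ replicate 2 at 19350 CPM, and its part in the age differences was not tested. *Smox* went from 98.0 ± 37.3 CPM to 36.6 ± 10.1 CPM, with the highest 30m library at 51.2 CPM and the lowest 10m library at 61.6 CPM. Its log2 fold change was -1.42 (SE 0.26), and -1.48 without 30m xNMJ replicate 5. *Amd1* went from 908 ± 241 to 468 ± 184 CPM (-0.96, SE 0.24), and all 8 30m libraries lay below the 10m median. *Odc1* (0.19, SE 0.27), *Sat1* (0.02, SE 0.47), *Azin1* (-0.27, SE 0.47), *Oaz1* (-0.00, SE 0.17), *Sms* (0.21, SE 0.23), *Srm* (-0.58, SE 0.71) and *Oaz2* (1.03, SE 1.06) had age differences smaller than their standard errors, and *Paox* had 0.47 (SE 0.43). Without 30m xNMJ replicate 5, *Sat1* stood at -0.62 and *Azin1* at -0.41.

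The third comparison asked whether the age difference depended on the region. For the 9 members other than *Smox* the interaction did not pass the test, and neither did any of the 13990 genes (0%) by edgeR, where 708 had an unadjusted p under 0.05, while DESeq2 called 9. The member furthest from 0 was *Srm* at 0.78 (95% interval -1.25 to 2.81), and the interval of *Oaz1* was -0.50 to 0.48. The estimate of *Sat1* was -0.20 (95% interval -1.54 to 1.15), and 0.45 without 30m xNMJ replicate 5. *Smox* had an estimate of 0.99 (SE 0.36), given as an estimate with no test because the xNMJ side of that contrast chose it.

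The genes with the smallest difference from *Smox* over the 32 libraries were *Srl*, *Ivns1abp*, *Prpf4b*, *Ampd1* and *Ing4*. The measure was the root mean square difference of log2 CPM after each gene's mean was taken off, over the 6622 genes whose mean reached 10 CPM, and it was 0.59, 0.60, 0.60, 0.62 and 0.62 for these 5. A gene with no spread at all would stand at 0.712, with 136 of the 6622 genes below that value. Of the members, *Amd1* stood at 0.68 and *Oaz1*, whose group means hardly differed, at 0.75. In xNMJ, *Srl* had 524 ± 91.0 CPM at 10 months and 409 ± 71.9 CPM at 30 months, a smaller step than that of *Smox*.

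Other genes of polyamine metabolism and its supply were counted from lists of 29 genes beside the members. Of these, 27 were in the tables and 20 were tested. At 10 months 1 was called higher in NMJ and 1 lower, at 30 months 1 was higher and none lower, and none passed for age in NMJ or for the interaction. These shares are near those of all genes tested, of which 6.5% were higher and 5.05% lower at 10 months and 5% and 4.25% at 30 months. The higher gene was *Atp13a3*, which encodes a P5B-type ATPase of the polyamine transport group. It went from 0.83 ± 1.33 to 7.21 ± 3.98 CPM at 10 months (log2 fold change 3.04, SE 0.81, edgeR adjusted p = 0.0099) and from 0.55 ± 0.73 to 7.92 ± 4.10 CPM at 30 months (3.87, SE 0.86, edgeR adjusted p = 0.0025), with no count in 3 and 4 of the 8 xNMJ libraries. Its xNMJ means lay within the range of the floors of 3 counts there (0.27 to 0.93 CPM), so the size of these differences is uncertain. A gene this low in xNMJ could pass the filter through its NMJ libraries alone. The lower gene was *Oat*, which encodes ornithine aminotransferase and was the most abundant gene of the arginine and ornithine list. At 10 months it had 178 ± 65.5 CPM in xNMJ against 104 ± 23.9 CPM in NMJ (-0.77, SE 0.21, edgeR adjusted p = 0.012), and -0.50 at 30 months (edgeR adjusted p = 0.15).

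The most abundant genes of the other lists did not pass. *Mat2a*, which makes S-adenosylmethionine, had 0.66 at 10 months (SE 0.23, edgeR adjusted p = 0.0504) and 0.39 at 30 months (edgeR adjusted p = 0.34). *Eif5a*, whose protein carries the spermidine-derived residue hypusine, had 0.30 at both ages (edgeR adjusted p = 0.49 and 0.51). *Slc3a2*, a heavy chain of amino acid transporters that has been tied to polyamine export, had -0.10 and 0.06 (edgeR adjusted p = 0.83 and 0.91). *Azin2*, a second antizyme inhibitor, had -0.49 and 0.70 at 2.07 to 3.91 CPM (edgeR adjusted p = 0.62 and 0.48), and *Sat2* had 0.20 and 1.43 at 1.21 to 4.96 CPM (edgeR adjusted p = 0.92 and 0.36).

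A list of denervation and atrophy genes gave a reference from the same regions. Of its 10 tested genes, 4 were called higher in NMJ at 10 months (*Chrna1*, *Ncam1*, *Myog* and *Runx1*) and 3 at 30 months (the first 3 of these). Of all genes tested, 6.5% and 5% were called higher. At 10 months 1 of the 10 was called lower and at 30 months 0, against 5.05% and 4.25% of all genes. *Chrna1* is also among the junction markers above, and a link of these region differences to denervation was not tested. *Chrna1*, the acetylcholine receptor α subunit gene and the most abundant of the list, had log2 fold changes of 4.47 and 3.94. *Ncam1*, a neural cell adhesion molecule, had 4.44 and 3.61, and *Myog*, a myogenic transcription factor, had 3.02 and 3.33. In xNMJ *Myog* had means of 0.29 and 0.44 CPM, with no count in 6 and 3 of 8 libraries, so the size of its differences is uncertain. *Runx1*, a transcription factor, had 2.29 at 10 months and 0.25 at 30 months (edgeR adjusted p = 0.88). From 10 to 30 months its mean went from 1.63 ± 1.25 to 10.2 ± 9.53 CPM in xNMJ, given without a test. In NMJ it went from 8.04 ± 6.45 to 12.1 ± 7.91 CPM. *Fbxo32*, an atrophy-related ubiquitin ligase, was called lower at 10 months, at -1.05 (SE 0.27, edgeR adjusted p = 0.0071), and had -0.69 at 30 months (edgeR adjusted p = 0.11). None of the 10 was called for age in NMJ or for the interaction.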

How the data were processed

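The data were SMART-Seq v4 libraries of laser-captured regions, 8 in each of 4 groups taken from the sample labels. Per the study's methods and the submitters' processing notes, single-end reads were trimmed with cutadapt 1.9.1 and assigned with kallisto 0.43.1 to protein-coding transcripts on GRCm38, without strand, a read on several transcripts being divided evenly among them. The authors deposited a table of raw counts per gene and a table of TPM, both unpooled, and every column was mapped to a sample. Library totals ran from 4026648 to 16516788 counts. Because amplified reads carry no molecular identifiers, floors (3 counts) cover counting error only.

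Counts were fitted with edgeR 4.0.16 in R 4.3.3 (quasi-likelihood, TMM, all 32 libraries in 1 model with 4 group means, genes that reached 1 CPM in 8 or more libraries), with Benjamini-Hochberg adjustment over 13990 genes and a threshold of 0.05. The fit was tested on simulated counts, where it recovered the direction and size of changes but left many changes of weakly expressed genes uncalled. *Smox* was given no test in any comparison that includes xNMJ libraries, which chose it. Log2 CPM used a prior count of 2. Alternatives were DESeq2 1.42.0, its size factors, no filter, only the compared groups, the replicate number as a block, insert size as a covariate, limma 3.58.1 on log2(TPM + 1) and log2(TPM + 0.1), and leaving out each library. All 10 members were named. Genes of the other lists were named where they passed or were the most abundant of their list, and the 5 genes most like *Smox* by root mean square difference. *Pax7*, *Vcam1* and *Myf5* were named as well, to give the muscle stem cell list in full. The members, lists and rules were chosen with earlier results of these data known. *Amd2*, *Oaz3* and *Ufsp1* were not analysed here, and 2 cell type markers are not reported here. Positions are from GENCODE M21 (GRCm38), promoter windows from RefSeq (GRCm38.p6). Figures were drawn with matplotlib.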

Additional observations from a re-analysis of the deposited data

Results flagged for a closer look

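Of 40 gene and group pairs, 3 had a library whose gap to the nearest of the others passed Dixon's critical value for 8 samples, where chance gives about 1 in 20. *Oaz1* in 10m xNMJ replicate 7 was high, at 460 CPM (log2 CPM 8.84, next 8.34, gap ratio 0.595). *Srm* in 10m xNMJ replicate 4 was low, with no count (log2 CPM -2.19, next 1.78, gap ratio 0.562). *Srm* in 30m NMJ replicate 4 was high, at 31.4 CPM (log2 CPM 4.98, next 3.53, gap ratio 0.544).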

How the results depend on the processing

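The number of members called between regions stayed between 3 and 4 at either age over all alternatives (*Smox* not counted), and was 0 throughout for age in NMJ and for the interaction. *Odc1*, *Sat1* and *Azin1* passed in every fit of both region comparisons. The untested log2 fold change of *Smox* for age in xNMJ ran from -1.50 to -1.31 on leaving out a library. This range is a description only, because these same libraries chose *Smox*. *Amd1* at 10 months did not pass without the filter (-0.72, adjusted p = 0.061), with insert size as a covariate (-0.78, adjusted p = 0.051) or on log2(TPM + 1) (-0.48, adjusted p = 0.16). DESeq2 gave no adjusted p for 4 members for age in NMJ. The cause of these losses was not tested.

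Without 30m xNMJ replicate 5, *Oaz2* had 0.41 between regions at 30 months and 1.20 for age in xNMJ, and *Paox* -0.85 and 0.63.

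No alternative that turned a direction made a call. On log2(TPM + 1) and log2(TPM + 0.1), where the median gene also moved up, the region values at 10 months turned to 0.44 and 0.83 for *Srm*, 0.30 and 0.31 for *Sms* and 0.38 and 0.58 for *Paox*. At 30 months they turned to 0.027 and 0.027 for *Amd1*, 0.14 and 0.15 for *Sms* and 0.042 and 0.19 for *Paox*. For age in NMJ they turned to 0.0013 and 0.0013 for *Oaz1* and 0.0048 and 0.0063 for *Sms*. For the interaction they turned to 0.013 and 0.0030 for *Odc1*, 0.29 and 0.63 for *Azin1* and 0.082 and 0.083 for *Oaz1*, and with the smaller pseudocount to -0.14 for *Oaz2*. With insert size as a covariate, *Oaz1* turned to -0.035 at 10 months, -0.012 at 30 months and 0.023 in the interaction, *Oaz2* to -0.11 and *Paox* to 0.50 at 10 months, and *Paox* to -0.14 for age in NMJ.

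Whether the replicate numbers pair the libraries is not settled by the labels, and they were not used as pairs because same-numbered libraries did not all correlate above 0.1. That rule cannot show that the libraries are unpaired. Deviations of same-numbered NMJ and xNMJ libraries correlated at -0.0016 to 0.19 at 10 months and -0.018 to 0.37 at 30 months. At each age 4 of 8 NMJ libraries matched their own number best, with 8 xNMJ libraries to match, so a pairing remains possible. With the replicate number as a block, 1829 genes passed at 10 months and 1531 at 30 months (1615 and 1295 without it). *Srm* at 10 months had 0.096, *Paox* for age in NMJ -0.033, *Azin1* and *Oaz2* in the interaction 0.25 and -0.66, and *Sat1* for age in xNMJ -0.013. *Oaz2* had 1.73 and 1.07 between regions at 10 and 30 months and 3.41 for age in xNMJ.

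Leaving out 1 library turned the direction of 13 tested values at least once, and of 3 untested ones. In the interaction, *Azin1* ran from -0.34 to 0.11, *Oaz1* from -0.12 to 0.075, *Oaz2* from -0.97 to 1.17, *Odc1* from -0.35 to 0.18 and *Sat1* from -0.50 to 0.45. For age in NMJ, *Oaz1* ran from -0.11 to 0.048, *Paox* from -0.12 to 0.19, *Sat1* from -0.48 to 0.0040 and *Srm* from -0.30 to 0.63. Between regions at 10 months, *Oaz1* ran from -0.011 to 0.15, *Oaz2* from -0.37 to 1.54 and *Srm* from -0.55 to 0.36, and *Oaz1* at 30 months from -0.065 to 0.12. The untested ones, for age in xNMJ, were *Sat1* (-0.62 to 0.32), *Odc1* (-0.069 to 0.46) and *Oaz1* (-0.088 to 0.11), and *Oaz2* there kept its sign but ran from 0.30 to 2.44. *Smox*, also untested, had 0.25 and 0.25 between regions at 10 months on the TPM scales, and 1.39 and 1.43 at 30 months. Among all genes, the region calls (1615 and 1295) moved by over 1.5 times on TPM, to 2918 and 3561 with a pseudocount of 1 and to 3014 and 3681 with 0.1. For age in xNMJ the 6 calls became 84 with DESeq2, 2 with insert size, and 0 with only the compared groups, the block or TPM. From 0 by edgeR, DESeq2 called 1 gene for age in NMJ and 9 for the interaction, and log2(TPM + 1) called 3 for age in NMJ.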
